A study of Homo sapiens with 24 samples.

Results

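Acetylation of histone H3 at lysine 27 (H3K27ac) was set against trimethylation of lysine 4 (H3K4me3) in unperturbed human cardiomyocytes. The members were the control libraries of these marks, 3 for H3K27ac and 3 for H3K4me3, which are 6 of the 24 libraries of the series. They were chosen by mark and condition in the sample titles, and the read count of every region was scaled to its library's total. The cells were ventricular-like cardiomyocytes differentiated by a commercial kit from H9, a human embryonic stem cell line, and collected on day 15. The remaining libraries were 6 control libraries of H3K4me1 and H3K9me3, and 12 libraries of all 4 marks from cells with knockdown of ZNF436, a zinc finger protein gene. The sources used here name neither the method of the knockdown nor what the control cells received. All groups came from 1 cell line and 1 differentiation procedure, so line and procedure are common to every value below.

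H3K4me3 is laid down around transcription start sites, chiefly at promoters rich in CpG dinucleotides. Active promoters carry it, and so do promoters held in a poised or repressed state by Polycomb complexes. H3K27ac, written by the acetyltransferases p300 and CBP, marks active promoters and active enhancers, and it cannot share a lysine with the Polycomb mark H3K27me3. A promoter with strong H3K4me3 and little H3K27ac is therefore of interest in a differentiating cell type. H3K4me1 lies mainly at enhancers and on the shoulders of promoters, and H3K9me3 marks heterochromatin and silenced repeats.

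The marks were read by CUT&Tag, in which an antibody tethers a transposase that cuts and tags nearby DNA. Counts covered 153244 regions of the hg19 build, shared by all libraries and with a median width of 708 bp. Total counts were 3188173, 3043827 and 3074226 in the H3K27ac libraries, and 11964862, 13933927 and 11936924 in the H3K4me3 libraries. Over 47858 regions, Spearman's rho between libraries of the same mark was 0.63 to 0.75 for H3K27ac and 0.87 to 0.89 for H3K4me3, and between the marks it was 0.25 to 0.35. The H3K27ac values thus rested on fewer counts, and their libraries ranked these regions less alike. No gene annotation of hg19 was used, so regions are named by position, "promoter" is not checked against start sites, and the cardiomyocyte label was not checked against marker genes.

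Across the genome the marks filled different regions. Of 62294 regions with enough counts to test, 93.5% differed between H3K27ac and H3K4me3 at an adjusted p under 0.05 (edgeR's quasi-likelihood test with Benjamini-Hochberg adjustment). H3K27ac held the larger share of its library in 72.3% of the tested regions, and the smaller share in 21.2%. The median log2 ratio of H3K27ac over H3K4me3 was 4.01. A difference here is between shares of libraries made with different antibodies and does not compare amounts of the marks. With TMM or RLE factors the median of all tested regions shifted by -2.51 or -2.35 on the log2 scale, so the sign of a single ratio depends on the scaling, and positions relative to that median are given as well.

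Strong H3K4me3 was defined as a mean control level in the top 10% of all regions per kilobase, at 5.00 CPM per kb (CPM being counts scaled to a common library total) or more, with at least 10 CPM over the region. Of 15325 regions above the first limit, 1468 did not reach the second, which left 13857 strong regions. All of them passed the count filter. H3K27ac held the smaller share of its library in 12346 of them and the larger share in 239, while 1272 did not pass the test, against a background of 21.2% smaller and 72.3% larger among all tested regions. The selection used the same H3K4me3 counts, so these numbers describe the selected regions. In 12547 strong regions all 3 H3K27ac values lay below all 3 H3K4me3 values, an order found in 22.1% of all tested regions. The median log2 ratio of the strong regions was -1.78. Relative to the median of all tested regions it stood at -5.78, and with TMM and RLE factors at -5.82 and -5.81. A factor scales a whole library, so these positions had to lie close together. The reference median depends on the filter, however. With a strict filter (30 reads in the smallest library) it was -0.99 over 21972 tested regions, and the median of the strong regions was -1.77.

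Acetylation of the strong regions spanned a wide range. The lowest 10% by mean control H3K27ac level, here called low-acetylation, held 1386 regions at or under 1.89 CPM per kb. The highest 10%, here called high-acetylation, held 1386 regions at or over 15.1 CPM per kb. The highest value inside the low class was 1.886 and the lowest outside it 1.888, so the limits cut a continuous distribution. Of all strong regions, 3251 (23.5%) had less H3K27ac than the median of the whole region list, 3.45 CPM per kb, and 22.2% were in the top 10% of all regions for H3K27ac. Over the 13857 strong regions the levels of H3K27ac and H3K4me3 per kb had a Spearman's rho of 0.52. Both levels share the region's width as divisor and also move with width, since rho with width was 0.39 for H3K27ac and 0.30 for H3K4me3.

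**Figure D1:**
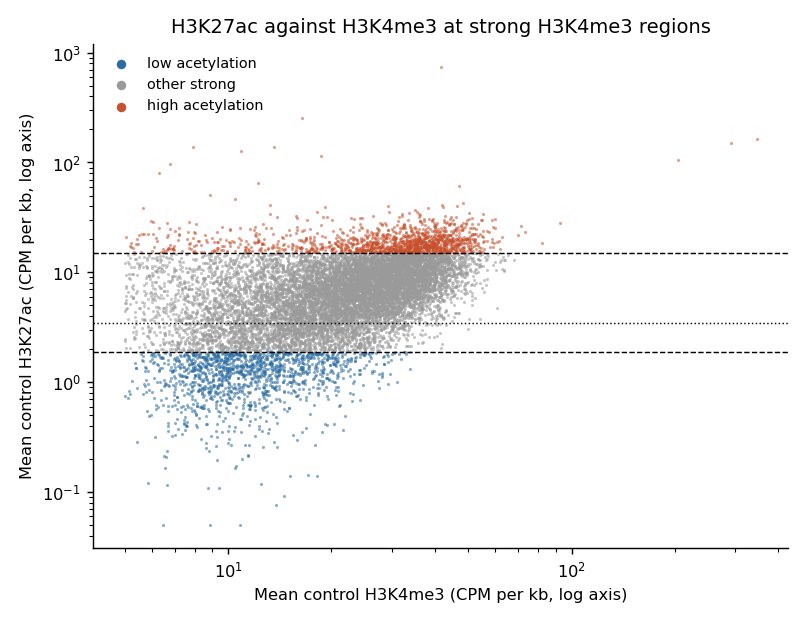
Each point is 1 of the 13857 strong H3K4me3 regions, with the mean of 3 control H3K4me3 libraries on the horizontal axis and of 3 control H3K27ac libraries on the vertical axis, both in CPM per kb on log axes. Dashed lines are the class limits of 1.89 and 15.1 CPM per kb and the dotted line is the all-region H3K27ac median of 3.45, and the 3 regions without an H3K27ac count are drawn at 0.05.

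The low class had little acetylation, with class medians above those of regions rich in the heterochromatin mark. The median H3K27ac level of the low class was 1.11, 1.26 and 0.900 CPM per kb in the 3 control libraries. The high class had medians of 20.5, 16.1 and 18.8 CPM per kb, so high and low values lay far apart, as the class rule requires. The mean of the 3 library medians was 1.09 ± 0.18 CPM per kb in the low class, against 0.217 ± 0.21 in 15270 regions in the top 10% for H3K9me3 and under the H3K4me3 limit (SD, n = 3), which were taken as the background of the acetylation libraries. The library medians of that background were 0, 0.419 and 0.233, all below those of the low class but at or near the floor of no counts. Single regions of both sets overlapped. The interquartile range of 3-library means was 0.886 to 1.59 CPM per kb in the low class and 0.201 to 1.28 in that background. Behind the median low region stood 23 H3K27ac counts over 3 libraries, against 575 in the median high region, so single low regions were measured with much larger counting error.

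The low class also had less H3K4me3, although all its members passed the H3K4me3 limit. The library medians of H3K4me3 were 11.6, 10.8 and 11.1 CPM per kb at low-acetylation regions, and 32.4, 33.4 and 32.6 at high-acetylation regions. The ranges did not overlap, and the low level was 0.340 times the high one. The H3K27ac level of the low class was 0.0586 times that of the high class, a ratio set by the ranking on H3K27ac. The median log2 ratio of H3K27ac over H3K4me3, computed per region from mean CPM with a pseudocount of 0.3, was -3.16 in the low class, -1.76 in the other strong regions and -0.78 in the high class. The class limits alone put every low region's H3K27ac share under its H3K4me3 share, so the edgeR call of a smaller share in all 1386, against 21.2% of all tested regions, is no finding. Of the 1386 high regions, 956 had a smaller and 158 a larger share, and 272 did not pass, but with TMM or RLE factors only 1 had a larger share.

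**Figure D2:**
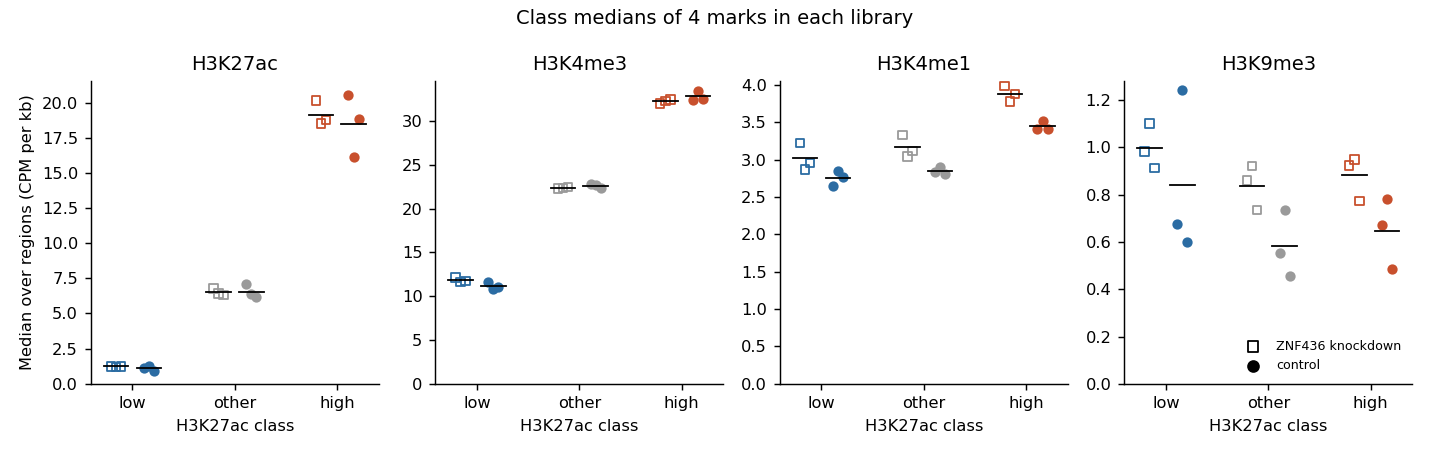
Points are the medians over the low-acetylation (1386), other strong (11085) and high-acetylation (1386) regions in each library, in CPM per kb, for H3K27ac, H3K4me3, H3K4me1 and H3K9me3, with open squares for ZNF436 knockdown and filled circles for control, and bars are the means of 3 libraries. The classes were set on the control H3K27ac and H3K4me3 libraries alone, and the order of the H3K27ac medians was the same in the knockdown libraries.

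Libraries that had no part in choosing the classes kept the order of the classes. In the knockdown H3K27ac libraries the class medians were 1.23 ± 0.020 CPM per kb at low-acetylation regions and 19.1 ± 0.88 at high-acetylation regions (SD, n = 3), a ratio of 0.0643 between low and high. All 3 libraries showed it (exact sign-flip permutation test over libraries, two-sided p = 0.25, the smallest p that 3 libraries can give). Of the low regions, 1021 (73.7%) were again at or under the control limit of 1.89 CPM per kb in the knockdown mean, 1334 (96.2%) were under 3.45, and 0 were over 15.1. Of the high regions, 1160 (83.7%) were over 15.1 again and 0 were under 1.89. The effect of the knockdown was not tested here, and knockdown and control cells came from the same line.

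Membership of the classes was less certain than their order. When the classes were set on 1 control replicate alone, 46.4% to 52.1% of its low regions were low in another replicate, and 56.0% to 64.8% of its high regions were high in another. None of the low regions of 1 replicate was high in another. The class borders therefore move by library, whereas the ends of the scale did not change places.

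The plainest examples of H3K4me3 without acetylation were regions with almost no H3K27ac read. The 12 examples were the low-acetylation regions with the most negative log2 ratio among those past the test, so their ratios and p-values describe the choice. At chr15:30260305-30261619, H3K27ac had 0 counts in all 3 libraries, against 16.1, 13.8 and 12.7 CPM of H3K4me3. Set against a floor of 3 counts over the 3 libraries together, its H3K27ac share was 44.0-fold lower. The 95% exact interval of that fold, for counting error only, began at 35.7. The regions chr13:111719268-111720490 and chr18:59000475-59002055 also had 0 H3K27ac counts. At the same floor their H3K27ac shares were 33.3-fold and 31.3-fold lower than those of H3K4me3, with exact intervals that began at 26.9 and 25.3. These 3 were the strong regions without any H3K27ac count in control cells. In the knockdown libraries the same 3 regions had mean H3K27ac levels of 0.563, 1.35 and 0.382 CPM.

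Larger H3K4me3 peaks showed the same gap. At chr14:48142975-48146035, a region of 3061 bp, H3K27ac was 0, 1.31 and 0 CPM in the control libraries, against 57.5, 40.3 and 59.1 CPM of H3K4me3. The sets were far apart, with a log2 ratio of -6.87 (SE 0.60, edgeR adjusted p = 1.95e-08). This region also carried 13.8 CPM of H3K4me1, the most of the 12 examples. At chr1:166134973-166137012, H3K27ac was 0, 0 and 1.63 CPM, against 34.8, 34.2 and 40.6 CPM of H3K4me3. The sets did not overlap, and the log2 ratio was -6.04 (SE 0.68, edgeR adjusted p = 4.03e-07).

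The remaining low examples held 1 or 2 H3K27ac counts in all, so their folds are pooled ratios of counts. The region chr10:111216124-111217558 had a single H3K27ac count and 744 H3K4me3 counts, a share 183-fold lower (95% exact interval 32.7 to 7238, counting error only). At chr6:124123545-124125804, H3K27ac was 0.627, 0 and 0 CPM, against 29.4, 29.7 and 39.8 CPM of H3K4me3, a share 153-fold lower (42.2 to 1262). The region chr10:69990532-69992037 was 128-fold lower (35.3 to 1058). It was also the example with the most H3K27ac in the knockdown libraries, at a mean of 5.26 CPM. As all examples were chosen for their low control values, no comparison with control is drawn from this. The regions chr3:50711641-50713196, chr7:20836817-20838678, chr1:66257577-66259500 and chr14:60336243-60338177 had 2 H3K27ac counts each and shares between 77.8-fold and 110-fold lower. Across the 12, H3K4me3 means ran from 10.2 to 52.3 CPM and H3K27ac means from 0 to 0.542 CPM.

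At the other end the rule of highest H3K27ac per kb picked regions that were high in every mark. Of the 12 regions so named, 8 were among the 100 regions with most counts over all marks. At chr1:121478309-121485434, H3K27ac was 3025, 6264 and 6557 CPM, against 125, 272 and 496 CPM of H3K4me3. The sets did not overlap and the log2 ratio was 4.15 (SE 0.72, edgeR adjusted p = 0.00403). The same region held a mean of 44252 CPM of H3K9me3, far more than either active mark. The others were chr19:27731783-27740768, chr8:43092648-43097562, chr18:105199-112731, chr9:66970956-66974055, chr6:58773545-58780166, chr20:26188529-26190565 and chr17:31149129-31150560, with H3K9me3 means of 682 to 24931 CPM. The log2 ratios of all 8 were 2.403 to 4.15 on library totals, and with TMM factors -0.15 to 1.61. Under TMM the region on chromosome 20 alone passed the test, and chr17:31149129-31150560 changed sign.

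The other 4 regions so named were short. The region chr11:11778775-11778817 was 43 bp wide and held 6.98 CPM of H3K27ac, against 14.9 CPM of H3K4me3. The region chr15:41718876-41718926 was 51 bp wide and did not pass the test (edgeR adjusted p = 0.0578). The regions chr2:33141262-33141692 and chr3:73159725-73160398 were 431 and 674 bp wide. In the order given, mean H3K9me3 of these 4 was 3.72, 7.33, 33.7 and 30.1 CPM. Divided by width, all of these were over the top 10% limit for H3K9me3, 11.9 CPM per kb. The regions of 43 and 51 bp had 65 and 71 H3K27ac counts over 3 libraries, those of 431 and 674 bp had 417 and 720, and the median high region had 575. In the whole high class, 21 of 1386 regions were among the 100 most counted, 15 were in the top 10% for H3K9me3 and 3 were under 500 bp, whereas the low class had 0 of each.

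With those kinds of region left out, 1358 high-acetylation regions remained, and the 12 with the most H3K27ac per kb gave clearer examples of acetylated strong regions. This rule was chosen after values had been seen. At chr19:13956987-13959024, H3K27ac was 108, 101 and 99.2 CPM, against 20.4, 20.5 and 13.2 CPM of H3K4me3. The sets did not overlap, with a log2 ratio of 2.51 (SE 0.22, edgeR adjusted p = 2.27e-08) that was -0.05 with TMM factors. At chr2:232529665-232532574, H3K27ac was 131, 60.1 and 143 CPM, against 18.1, 9.47 and 21.8 CPM of H3K4me3. Replicate 2 was the lowest for both marks there, the sets did not overlap, and the log2 ratio of 2.76 was 0.26 with TMM factors. This region had the most H3K4me1 of the 12, 35.9 CPM. It alone of the 12 had H3K4me1 above its mean H3K4me3, which was 16.4 CPM.

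Others of these 12 carried both marks in near-equal shares on library totals, whereas with TMM factors all 6 of them had a smaller H3K27ac share, at log2 ratios of -2.77 to -2.48, and with RLE factors -2.59 to -2.30. At chr17:7231373-7234393, H3K27ac was 135, 137 and 75.5 CPM, against 117, 121 and 110 CPM of H3K4me3. The ranges overlapped and the log2 ratio was 0.00 (SE 0.20, edgeR adjusted p = 0.996), which is -4.005 relative to the median of all tested regions. At chr11:129870313-129874204, H3K27ac was 169, 126 and 159 CPM, against 155, 178 and 161 CPM of H3K4me3, and the ranges overlapped there too. The regions chr1:1623528-1625120, chr1:245132605-245135260, chr3:9833067-9836156 and chr1:91485504-91488527 did not pass the test either, with log2 ratios of -0.21 to 0.07. The regions chr1:17221701-17223347, chr1:16839335-16841603, chr7:16459554-16462140 and chr9:35656785-35659786 had a larger H3K27ac share, at log2 ratios of 2.15, 1.63, 1.05 and 0.45, all of which were below 0 with TMM and with RLE factors. The call at chr9:35656785-35659786 (edgeR adjusted p = 0.0310) was also lost without H3K27ac replicate 1 (log2 ratio 0.20) or without any single H3K4me3 library (0.40 to 0.49), and with DESeq2 and limma-voom. At chr3:9833067-9836156 a smaller share passed the test without H3K27ac replicate 1 (log2 ratio -0.40, edgeR adjusted p = 0.0339). Read against the low examples, H3K27ac thus ran from 0 counts to a mean of 152 CPM at regions that all had at least 10 CPM of H3K4me3.

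**Figure D3:**
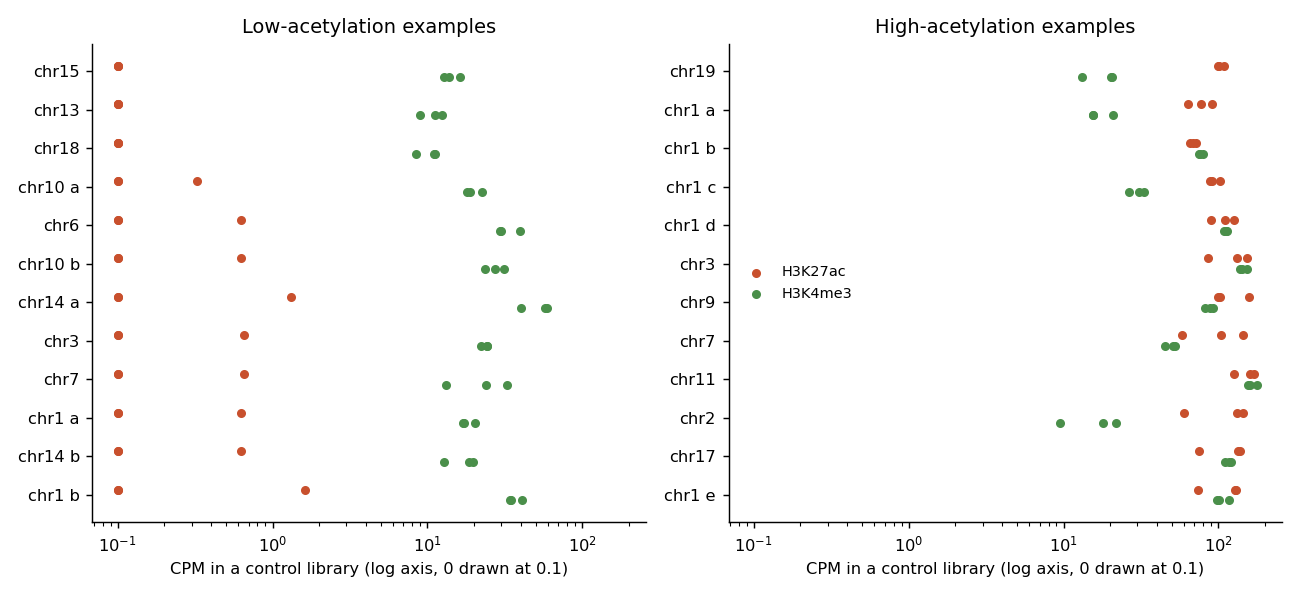
Control CPM per library at the 12 low-acetylation examples (left) and the 12 high-acetylation examples chosen after values had been seen (right), with H3K27ac in red above H3K4me3 in green, on a log axis where 0 is drawn at 0.1. Regions appear in the order in which they were ranked, with letters where a chromosome has several, and every H3K27ac value lies below every H3K4me3 value in all 12 low examples, with no H3K27ac value above 1.63 CPM.

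Low acetylation was concentrated among the weaker of the strong regions. In the lowest quintile of the 13857 strong regions by H3K4me3 per kb, 30.7% were low and 5.27% high in acetylation. In the highest quintile, 0.144% were low and 25.9% high. The shares in between moved steadily for the low class, at 13.6%, 4.40% and 1.23%, while the high class stood at 4.01%, 4.98% and 9.85%. High acetylation was therefore present in every quintile, and low acetylation was nearly absent from the strongest. These shares describe the classes, since the rule used both levels.

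Low-acetylation regions were narrower. Their median width was 2007.5 bp, against 2534 bp for other strong regions and 3261.5 bp for high-acetylation regions. In the narrowest quintile of strong regions 20.8% were low and 3.03% high, and in the widest quintile 2.60% were low and 19.9% high. Classes set within each quintile of H3K4me3, an alternative chosen after values had been seen, had 1390 members each and near-equal H3K4me3 medians of 21.3 and 22.6 CPM per kb. The low ones were again narrower, at 2279 bp against 3302.5 bp. They shared 716 members with the low class, which is 51.7% of it, and 946 with the high class, which is 68.3% of it.

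H3K4me1, which played no part in the classes, was lower at low-acetylation regions, by an amount that depended on the summary. Its median was 2.65, 2.84 and 2.77 CPM per kb at low-acetylation regions, and 3.42, 3.52 and 3.40 at high-acetylation regions. The values did not overlap, and the ratio of low to high was 0.798, lower in 3 of 3 libraries (exact sign-flip permutation test, two-sided p = 0.25, the smallest possible). In the knockdown libraries the ratio was 0.777, again in 3 of 3. With classes set within quintiles of H3K4me3 the medians over regions were 2.47 and 4.33 CPM per kb, and the log2 ratio was -0.85, against -0.33 for the classes over all strong regions. With classes and levels in CPM per region it was -2.62, but with levels alone in CPM per region it was -1 in each library. As a mean over regions it was -0.67. Without the most counted regions, those under 500 bp and the high ones in the top 10% for H3K9me3, that mean gave -0.47. Both classes were poor in strong H3K4me1, the low class more so. In the top 10% of all regions were 3 low (0.216%), 135 other (1.22%) and 72 high regions (5.19%).

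The low regions with the most H3K4me1 per kb, named after values had been seen, were chr7:150036624-150039395, chr6:101849524-101851402, chr16:67196891-67198429 and chr6:99278778-99284198. Their mean H3K4me1 was 33.4, 22.2, 17.9 and 59.0 CPM, in each case above their H3K4me3 of 21.8, 11.8, 10.02 and 50.1 CPM. The last is a wide region of 5421 bp in which H3K27ac was 7.21, 9.86 and 1.95 CPM. A few low-acetylation regions thus carried both H3K4 methylation marks at comparable shares of their libraries.

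H3K9me3 was low at strong H3K4me3 regions, and its difference between the classes varied by library and by summary. H3K9me3 also had the smallest control library totals, 2251853, 2143594 and 2748839, so its class medians rest on few counts per region. Its median was 0.675, 1.24 and 0.602 CPM per kb at low-acetylation regions, and 0.672, 0.783 and 0.487 at high-acetylation regions. The ranges overlapped, and the log2 ratio of low over high was 0.01, 0.67 and 0.31 by library, so replicate 2 carried most of it. It was above 0 in every control library, at a mean of 0.33 (exact sign-flip permutation test, two-sided p = 0.25, the smallest possible). In the knockdown libraries it was 0.09, 0.22 and 0.24, at a mean of 0.18. In control libraries the log2 ratio was 0.07 with classes set within quintiles of H3K4me3. It was below 0 when classes and levels were both in CPM per region. With levels alone in CPM per region it was -0.585, 0 and 0 by library, where 0 stands for equal medians in both classes. As a mean over regions it was -3.67. Without the most counted regions, those under 500 bp and the high ones in the top 10% for H3K9me3, that mean gave 0.57. Over 3 libraries, 629 (45.4%) low regions were above the all-region H3K9me3 median of 1.00 CPM per kb, against 23.7% of other strong and 23.3% of high regions, but 0 low regions were in the top 10%.

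Among low regions, the most H3K9me3 per kb lay at chrX:134555265-134559160, chr1:248020237-248021492, chrX:101966494-101968741 and chrX:75647774-75649921, again named after values had been seen. Their H3K9me3 means were 44.4, 13.7, 20.9 and 19.6 CPM, against H3K4me3 means of 33.5, 11.6, 47.0 and 60.5 CPM. At chrX:75647774-75649921, H3K27ac was 1.88, 3.94 and 1.30 CPM, against 67.7, 57.1 and 56.5 CPM of H3K4me3. The sets did not overlap, with a log2 ratio of -4.67 (SE 0.37, edgeR adjusted p = 7.49e-09). Of these 4 regions 3 were on the X chromosome.

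Strong regions of the X chromosome had lower levels of both active marks. Over 468 X-linked regions the median H3K27ac level was 5.26, 4.71 and 4.65 CPM per kb, against 7.18, 6.44 and 6.26 in 13389 autosomal regions. The ratio of X to autosomes was 0.736 for H3K27ac, 0.721 for H3K4me3 and 0.788 for H3K4me1, each below 1 in 3 of 3 libraries. For H3K9me3 the X value was 2.07 ± 0.13 CPM per kb, against 0.592 ± 0.15 on autosomes (SD, n = 3), a ratio of 3.56 with no overlap between the library values. Each of these 4 comparisons had an exact sign-flip permutation p of 0.25 (two-sided, the smallest possible). In the knockdown libraries the ratios were 0.793 for H3K27ac and 0.711 for H3K4me3.

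The shares of low and high acetylation on X are given below over all strong regions and by quintile of H3K4me3, without a test. Low acetylation took 14.3% of X-linked strong regions, against 9.85% of autosomal ones. Within the lowest and second quintiles of H3K4me3, which held 29.5% and 38.9% of the X-linked regions, it took 29.7% and 12.1% on X, against 30.7% and 13.7% on autosomes. High acetylation took 3.21% of X-linked regions, against 10.2% of autosomal ones, and in those quintiles 1.45% and 1.10%, against 5.47% and 4.21%. Quintiles 3 and 4 held 93 and 37 X-linked regions. Low acetylation took 2.15% and 5.41% of them, against 4.48% and 1.17% on autosomes, and high acetylation 4.30% and 10.8%, against 5.00% and 9.84%. In the top quintile, with 18 X-linked regions, low acetylation took 0% on X and 0.145% on autosomes, and high acetylation 16.7% and 26.0%. The order of X and autosomes was thus not the same in every quintile. The median log2 ratio of H3K27ac over H3K4me3 was -1.71 on X and -1.76 on autosomes. In single libraries low acetylation took 11.3% to 14.1% of X-linked regions in control cells and 8.90% to 14.2% in knockdown cells, and high acetylation 3.16% to 4.13% in control and 2.80% to 3.60% in knockdown cells.

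**Figure D4:**
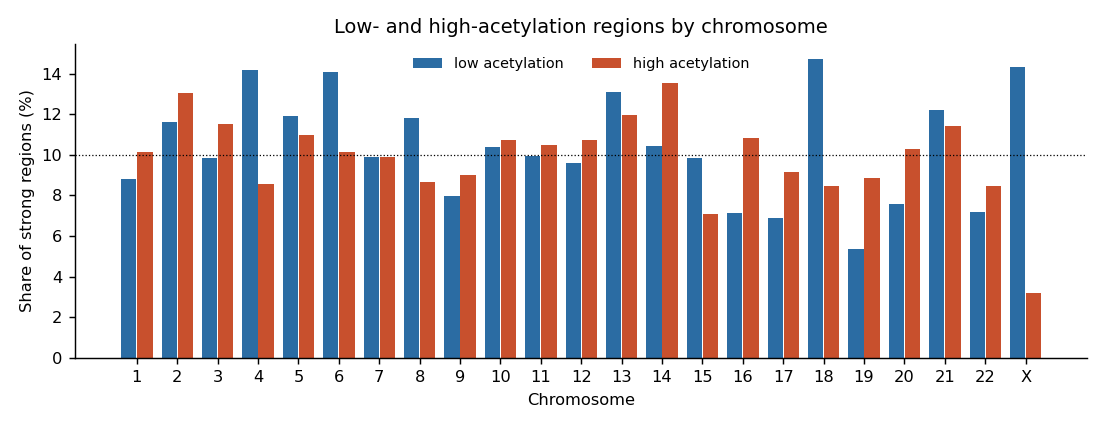
Bars give the percentage of the strong H3K4me3 regions of each chromosome that were low-acetylation (blue) and high-acetylation (red), and the dotted line is the 10% that defines each class over all chromosomes. Chromosome X has the lowest high-acetylation share, 3.21%, and chromosome 19 the lowest low-acetylation share, 5.36%.

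Among autosomes the low share varied more than the high share. It was highest on chromosomes 18, 4 and 6, at 14.7% of 224, 14.2% of 536 and 14.1% of 788 strong regions. It was lowest on chromosome 19, at 5.36% of 971 regions. The high share was highest on chromosome 14, at 13.6% of 450 regions, and lowest among autosomes on chromosome 15, at 7.08% of 466.

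The neighbourhood of a strong region differed with its acetylation. An acetylated region outside strong H3K4me3 was defined as one of at least 200 bp in the top 10% of all regions for H3K27ac and under the H3K4me3 limit, which gave 10721 such regions. Distances were taken between region centres. The median distance to the nearest was 193 kb from low-acetylation regions, 68.0 kb from other strong regions and 41.5 kb from high-acetylation regions. None lay within 50 kb of 87.0% of low, 57.8% of other and 44.9% of high regions. With classes set within quintiles of H3K4me3 the share with none was 83.2% for low and 37.8% for high regions. Low regions also lay further from the next strong region, at a median of 82.6 kb, against 40.8 kb for other and 43.9 kb for high regions.

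Listed regions without strong H3K4me3, 5 to 50 kb away, carried less of the active marks around low-acetylation regions. The class rule did not rank these regions. Their H3K27ac was 2.26, 2.84 and 2.36 CPM per kb around low regions, and 6.73, 6.40 and 6.64 around high regions. The values did not overlap, and low was 0.375 times high in the mean of 3 libraries. For H3K4me1 the ratio was 0.706. For H3K9me3 the order was the opposite, with 2.05 ± 0.38 CPM per kb around low and 0.875 ± 0.19 around high regions (SD, n = 3), a ratio of 2.35 without overlap. The H3K9me3 summed over these regions, which cover less length around low regions, ran the other way, at a median of 3.997, 5.60 and 3.64 CPM around low and 4.88, 6.53 and 4.73 CPM around high regions, lower around low in 3 of 3 libraries. Per kb, all 3 marks kept their direction in 3 of 3 libraries (exact sign-flip permutation, two-sided p = 0.25 each, the smallest possible), and with classes set within quintiles of H3K4me3 the ratios were 0.386, 0.637 and 2.41.

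These regions also covered less of the flanks of low-acetylation regions. The median length covered was 2.26 kb around low and 4.95 kb around high regions, and no region was listed around 11.1% of low and 2.31% of high ones. These measures come from the region list as well as the counts, and the sources used here do not tell how that list was made. Flanks of neighbouring members can overlap, so regions are not independent of each other.

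**Figure D5:**
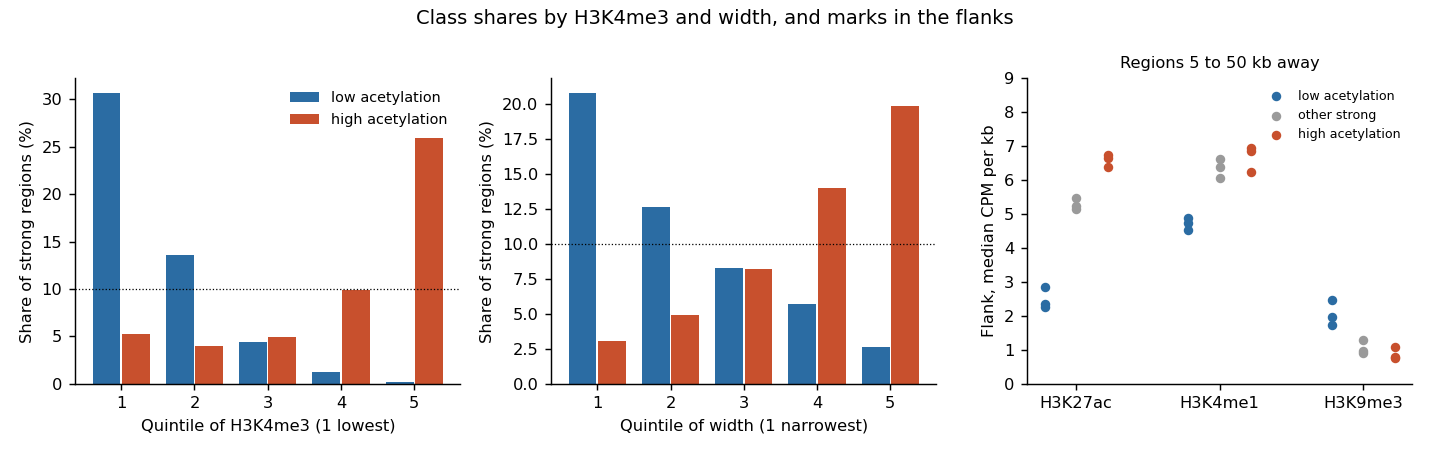
The left and middle panels give the percentage of strong regions that were low-acetylation (blue) and high-acetylation (red) in each quintile of H3K4me3 per kb and of width, with a dotted line at 10%. The right panel gives the median CPM per kb of H3K27ac, H3K4me1 and H3K9me3 in listed regions without strong H3K4me3, 5 to 50 kb away, 1 point per control library, where H3K27ac around low regions stays under 3 and around high regions over 6.

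Some low-acetylation regions stood in groups. Joined at gaps of up to 100 kb, 227 of the 1386 low regions (16.4%) fell into 106 groups, of which 93 were pairs, 11 had 3 members and 2 had 4. High-acetylation regions were grouped more often, with 335 (24.2%) in 140 groups and up to 8 members. The spacing of strong regions given above enters both counts.

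The group at chr5:42992013-43043758 held 4 low regions within 51.7 kb, and these were all the strong regions in its span. Their mean H3K27ac was 2.45, 4.77, 1.10 and 7.81 CPM, against 13.1, 37.5, 16.8 and 38.6 CPM of H3K4me3. The group at chr16:3095393-3239913 also had 4, but out of 10 strong regions over 145 kb, so other strong regions of the span lay outside the low class. Its low members had 0.953 to 4.29 CPM of H3K27ac, against 11.7 to 35.6 CPM of H3K4me3.

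In the 3 named groups of 3, every strong region of the span was low in acetylation. They were taken from 11 groups of that size, and the others are not described here. At chr1:40104340-40255346 the members had 2.65, 2.01 and 3.99 CPM of H3K27ac, against 10.01, 30.2 and 17.4 CPM of H3K4me3. At chr1:159914346-160040852 the middle member had 2.89 ± 1.12 CPM of H3K27ac, against 66.7 ± 0.95 CPM of H3K4me3 (SD, n = 3), the highest H3K4me3 level in the 5 groups. At chr14:37049910-37133201 the members had 0.866, 2.15 and 4.96 CPM of H3K27ac, against 23.4, 23.7 and 17.5 CPM of H3K4me3. Their H3K4me1 was 14.6, 9.85 and 32.5 CPM, the last being above the H3K4me3 of the same region.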

How the data were processed

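The authors deposited unscaled counts for 153244 regions, the same list for all 24 libraries. Bowtie2 2.4.5, deepTools 3.5.4, bedtools 2.30.0 and hg19 are listed in the submitters' processing notes with no role. The origin of the regions is not given. Even counts were 51.9% to 65.9% of the deposited counts above 0, so counts may not be single fragments and counting intervals may be too narrow. The total per library, 3043827 to 3188173 for H3K27ac and 11936924 to 13933927 for H3K4me3, sets the precision.

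From these counts, CPM used library totals over all regions, and levels per kb divide by region width. The marks were compared with edgeR 4.0.16 (R 4.3.3), after filterByExpr, by the robust quasi-likelihood test with library totals and mark as the only term, with calls at an adjusted p under 0.05 (Benjamini-Hochberg). TMM assumes that most regions do not differ, so it served as an alternative. Separate cultures are not stated for the replicates, so p-values measure only the spread of these libraries, which may be technical. Within a mark, replicate pairs differed by more than sampling noise (chi-square per degree of freedom 6.49 to 8.38 for H3K27ac, 5.19 to 8.03 for H3K4me3), so none were merged. The titles number the replicates of each mark but do not say whether the same number stands for the same culture. Deviations of same-numbered libraries from their mark's mean had Pearson's r of 0.11, 0.19 and 0.14 over 62294 regions. Those of other numbers had -0.13 to -0.02. Deviations are centred over 3 libraries, so these negative values are not separate evidence of pairing.

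Named were the 12 low-acetylation regions with the most negative log2 ratio past the test and without overlap of the marks, the 12 high-acetylation regions with the most H3K27ac per kb, the 5 with the largest positive log2 ratio (all among those 12), and the 5 groups of low regions with most members. Of the 11 groups tied at 3 members, 3 were named. Named regions within 10 kb would be merged. The members, lists and cuts were chosen with earlier results of these data known. Gene lists and cell type markers were not run, as no hg19 annotation was used, and no sequence is shown. Alternatives were TMM and RLE factors, DESeq2 1.42.0, limma-voom (limma 3.58.1), other filters, thinning of H3K4me3 to the H3K27ac depth, halved counts, a replicate block, a minimum log2 ratio of 1, leaving out each library, other class limits and length scaling. Distances, shares and levels were computed with Python 3.11.15.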

Additional observations from a re-analysis of the deposited data

How the results depend on the processing

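Called over all regions, a larger H3K27ac share was found in 45050 regions on library totals, 26948 with TMM, 29254 with RLE, 27435 after thinning H3K4me3, 29957 with counts halved, 82755 without a filter and 8514 with a strict filter (30 reads in the smallest library). The larger share thus made up 77.3% of all calls on library totals, but 61.6% with TMM, 63.8% with RLE and 41.3% with the strict filter. Thinning, halving and the filters changed how many regions were tested. Among strong regions the larger share numbered 239, but 1 with TMM, 1 with RLE and 126 at a minimum log2 ratio of 1. With the replicate block it was 44640 larger and 13405 smaller over all regions, and 269 and 12493 among strong ones, and the block changed no call of a named region, although the ratio near 0 at chr17:7231373-7234393 was -0.04. Leaving out 1 library gave 45385 to 59614 larger over all regions and 189 to 276 among strong ones. The smaller share kept within 1.5 times its main count in every alternative. The low class held 766 regions with strong H3K4me3 as the top 5%, of which 113 were in the class as reported (8.15% of it), and 693 and 2772 with 5% and 20% of strong regions. The H3K9me3 log2 ratio of low over high was -1.15 with classes and levels in CPM per region, and -3.67 as a mean over regions. With the reported classes and levels in CPM per region its mean was -0.195, with or without the members left out next. The cause of the difference from -1.15 was not tested. Without the most counted regions, those under 500 bp and the 15 high ones in the top 10% for H3K9me3 (added after seeing the data), the mean over regions gave 0.57, against -3.67 with them. Groups of low regions numbered 65 at 50 kb, 162 at 200 kb, and 26 and 335 with 5% and 20% of strong regions. Of 374 checks of the 24 regions named by the first rules, 346 kept direction and side of the threshold, 21 lost the call, 6 gained it and 1 reversed (chr17:31149129-31150560, -0.15 with TMM). Of the 20 regions named after values had been seen, 7 changed sign with TMM and 6 with RLE. Depth limits single low regions most, since the median one has 23 H3K27ac counts.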
